A study of Canis rufus and Canis latrans with 56 samples.

Results

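FLOT2 and GRAMD1A, genes of cholesterol-rich membrane and of cholesterol transfer, differed among red wolves over a several-fold range in whole blood, and the probe of FLOT1 lay under the background of the arrays in every animal. These 3 of the 16121 named genes on the array were found by symbol, and each is measured by 1 of the 24354 probes (GI_4758393-S for FLOT2, GI_34147343-S for GRAMD1A and GI_6552331-S for FLOT1). FLOT2 and GRAMD1A were chosen by their large SD over these same wolves, so that spread is described here and not tested. FLOT1 was included as the partner of FLOT2.

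Flotillin 1 and flotillin 2, the products of FLOT1 and FLOT2, are membrane proteins of the SPFH family that sit on the inner face of the plasma membrane and of endosomes. They join into mixed oligomers and mark cholesterol-rich patches of membrane, known as rafts. In blood they are known from the rafts of red cells and, in human neutrophils and T cells, from the uropod, the rear pole of a crawling cell. GRAMD1A, also called Aster-A, is anchored in the endoplasmic reticulum, reaches the plasma membrane through its GRAM domain at contact sites, and carries cholesterol from the plasma membrane to the endoplasmic reticulum.

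The samples were whole blood of 1 coyote (Canis latrans, a free-ranging female) and 13 red wolves (Canis rufus), drawn into EDTA tubes and kept in RNAlater. Per the design text, 6 of the wolves were captive (2 females and 4 males) and 7 were free-ranging (2 females and 5 males). The sex and age of each wolf are not given in the labels used here. Blood drawn in the wild is noted on 1 array each of the coyote and of wolves 11136, 111080 and 11310. Since 7 wolves ranged free, a wolf without the note need not be captive, so neither status nor sex was compared. No animal carries a treatment label. RNA of every animal was labelled and put on 4 arrays, each on another slide, which made 56 arrays on 7 slides. The arrays carry human probes, and how well each binds the canid transcript was not measured, so the level of 1 probe cannot be ranked against that of another.

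Levels are given as log2 intensity above or below the array mean, so that a step of 1 means 2 times the intensity. The value of an animal is the mean of its 4 arrays adjusted for slide. Arrays of an animal are technical repeats of 1 blood sample, and each animal counts once. Of 38 genes of liver and skeletal muscle on the array, HPX had the highest mean level, 0.396, and this served as a bound for background, and 2064 probes (8.47%) lay above it. The SD of all probes on an array ran from 0.338 to 0.669, and wolf 11136 had the narrowest arrays.

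FLOT2 stood above the background bound in all 14 animals. It was 5.04 in the coyote. The highest wolves had 5.49 (11270), 5.27 (111080), 4.68 (11206), 4.63 (11310), 4.42 (11105) and 4.14 (10537). The other wolves had 3.44 (11148), 3.16 (11136), 3.08 (11274), 2.92 (10632), 2.85 (11275), 2.70 (10406) and 2.59 (11273). On the deposited scale the 13 wolves thus lay in 2 ranges, 7 wolves up to 3.44 and 6 wolves from 4.14, with a gap of 0.70 between them. The split depends on that scale. Wolf 11136 had the narrowest arrays (mean SD 0.365), and scaling arrays to equal SD raises its FLOT2 most, up to the level of the lowest high wolves. The 2 ranges are then not kept. The mean over wolves was 3.80 ± 1.01 (SD, n = 13), against an SD of 0.21 between single arrays of the same wolf once slide was taken out. From wolf 11273 to wolf 11270 the span was 2.89 on the log2 scale, or 7.43-fold. In bulk blood, more cells of a type that uses a gene and more of its RNA per cell cannot be told apart.

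GRAMD1A also stood above the bound in all 14 animals. It was 4.74 in the coyote. The highest wolves had 5.84 (11270), 5.37 (11206), 5.31 (111080), 5.00 (11310), 4.96 (11105) and 4.63 (10537). Then came wolves with 3.63 (11274), 3.61 (10632), 3.59 (11148), 3.57 (11275), 2.79 (10406), 2.71 (11136) and 2.62 (11273). The 6 wolves that were high for FLOT2 were also the 6 high ones here, and the gap below them was 1.00. A further step of 0.79 separated wolf 11275 from wolf 10406, so on the deposited scale GRAMD1A fell into 3 levels of 6, 4 and 3 wolves. The lowest level includes wolf 11136 with its narrow arrays. The mean was 4.13 ± 1.11 (SD, n = 13 wolves), against 0.21 between single arrays, and the span from wolf 11273 to wolf 11270 was 9.31-fold.

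**Figure D1:**
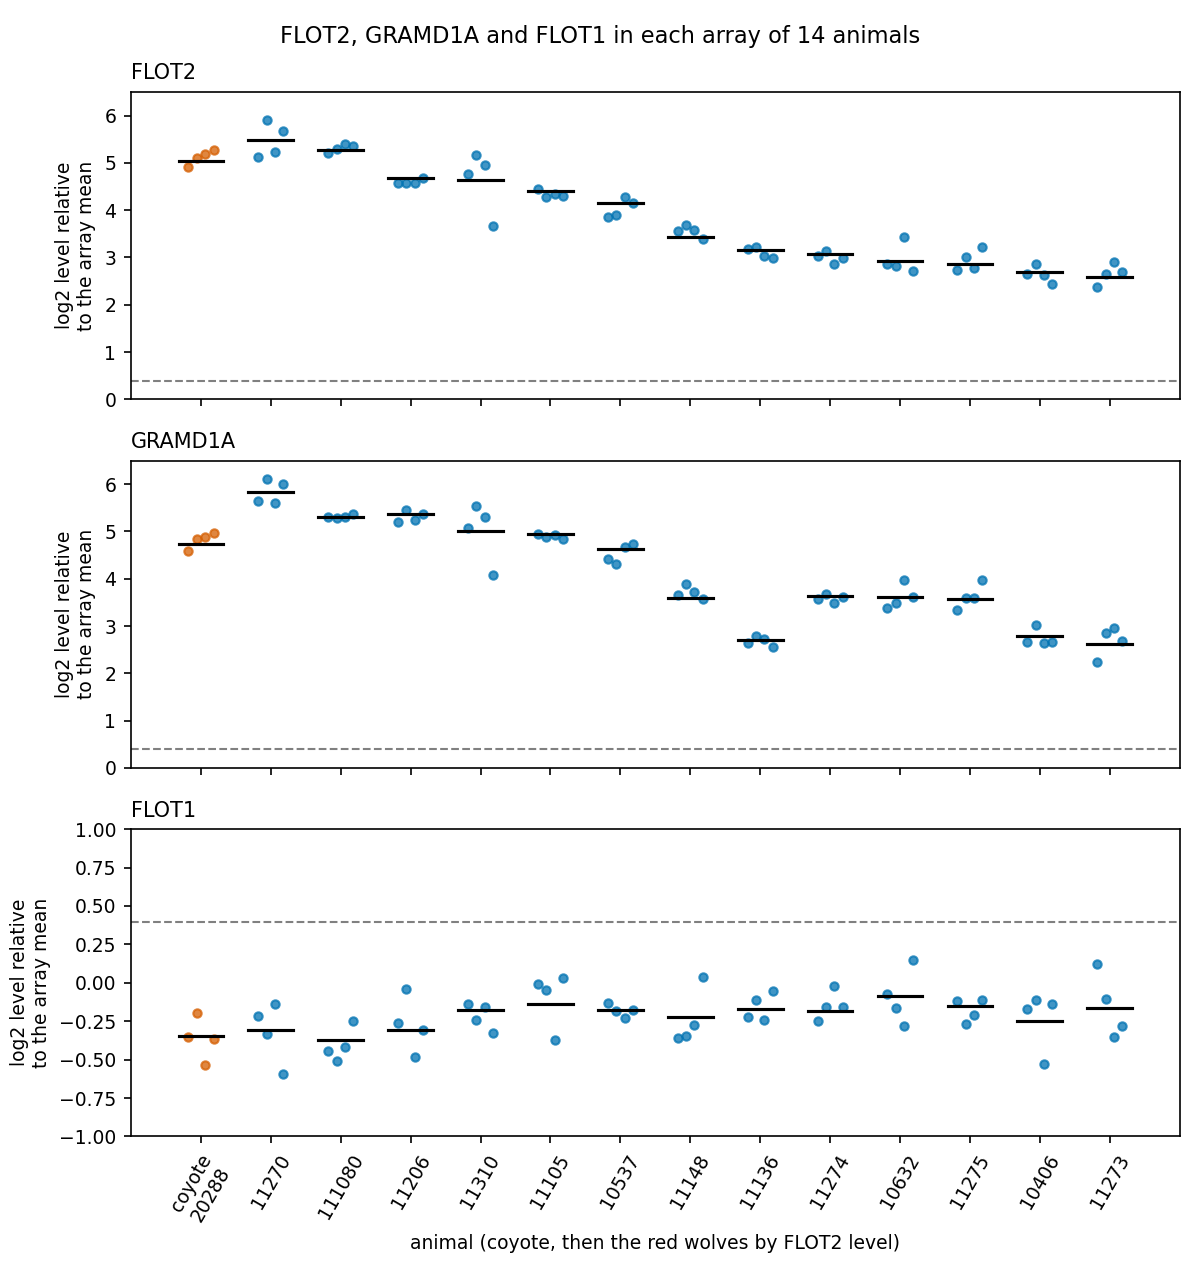
Log2 level relative to the array mean (vertical axis) of FLOT2, GRAMD1A and FLOT1 in the coyote (orange) and 13 red wolves (blue), ordered by FLOT2 level. Points are single arrays, bars the animal's slide-adjusted value, and the dashed line the background bound of 0.396. FLOT2 and GRAMD1A lie far above the line in all animals, while FLOT1 lies under it throughout. On the deposited scale 6 wolves lie above the gap in both FLOT2 and GRAMD1A.

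The order of the animals was resolved by the arrays only at a few steps. For FLOT2, 2 of the 13 steps between neighbouring animals were over 2 standard errors of their difference, as measured between arrays. These were the steps from the coyote to wolf 11206 (0.36, SE 0.16) and from wolf 10537 to wolf 11148 (0.70, SE 0.16). For GRAMD1A 4 of 13 steps were, namely from wolf 11270 to wolf 11206 (0.47, SE 0.15), from wolf 111080 to wolf 11310 (0.31, SE 0.15), from wolf 10537 to wolf 11274 (1.00, SE 0.15) and from wolf 11275 to wolf 10406 (0.79, SE 0.15). All other neighbours did not differ beyond that error.

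Between wolves that were not neighbours the arrays mostly stood apart. Of the 78 pairs of wolves, 58 (74.4%) had FLOT2 arrays that did not overlap and 64 (82.1%) had GRAMD1A arrays that did not, where the median probe above the bound had 17.9%. Since both genes were chosen for this spread, these counts describe them only. The SD over wolves was larger than that of FLOT2 for 11 probes on the array, and larger than that of GRAMD1A for 6.

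Wolves 11270 and 11273, the highest and the lowest for both genes, shared slides 32020 and 32024, which hold 2 of the 4 arrays behind each of their values. On slide 32020 FLOT2 was 5.91 in wolf 11270 and 2.91 in wolf 11273, and on slide 32024 it was 5.67 in wolf 11270 and 2.70 in wolf 11273. GRAMD1A was 6.10 in wolf 11270 and 2.95 in wolf 11273 on slide 32020, and 6.00 in wolf 11270 and 2.69 in wolf 11273 on slide 32024. The differences between these 2 wolves, at least 2.97 for FLOT2 and at least 3.15 for GRAMD1A on both slides, come from the arrays that made these wolves the extremes, and are a description only. Slide itself moved both probes, with limma adjusted p values of 0.0128 for FLOT2 and 0.0181 for GRAMD1A with animal in the model (20.3% of all probes passed this test). The slide terms ran from -0.25 (slide 32022) to 0.30 (slide 32020) for FLOT2 and from -0.20 to 0.25 on the same slides for GRAMD1A. Position on the slide did not pass for either (limma adjusted p = 0.162 and 0.663; 0.452% of probes passed).

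One array stood apart for both genes. In wolf 11310 the array on slide 32022 gave 3.66 for FLOT2, against 4.77 to 5.16 on the wolf's other 3 arrays, and 4.09 for GRAMD1A, against 5.07 to 5.55. This array also had the narrowest spread of the 4, with an SD of 0.347 over all probes. Without it wolf 11310 stood at 4.91 for FLOT2 and 5.28 for GRAMD1A. With it, the lowest FLOT2 array of the 6 high wolves (3.66) overlapped the highest array of the 7 low ones (3.68, wolf 11148). The GRAMD1A arrays of these wolves did not overlap, at 4.09 or higher against 3.98 or lower.

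FLOT1, which encodes the partner of flotillin 2 in the mixed oligomers, was under the bound in every animal. Its level was -0.35 in the coyote. Over the wolves it ran from -0.38 (wolf 111080) through a median of -0.18 to -0.08 (wolf 10632). The SD over wolves was 0.08 (n = 13), for values that each rest on 4 arrays, while single arrays of a wolf had an SD of 0.15. Of 78 pairs of wolves 2 had arrays that did not overlap. The median probe of the table had an SD over wolves of 0.09 and 3.85% such pairs. At this signal FLOT1 could not be measured, and its true level in the animals and its order among them are unknown.

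FLOT2 and GRAMD1A ran together over the wolves. Because the wolves lay in 2 ranges on the deposited scale, the relation was taken within each range, as a description. Among the 6 high wolves Pearson's r was 0.904 and Spearman's rho 0.943, and among the 7 low wolves they were 0.483 and 0.464. The lower range holds the main departure on that scale: wolf 11136 had the second highest FLOT2 of the 7 low wolves and the second lowest GRAMD1A. Within single slides, over 7 or 8 wolves each, r lay between 0.947 and 0.980, though these values count mostly which range a wolf lies in. The points share the arrays, and both probes tended to be higher in wolves whose arrays had a wider mean spread. Over the 13 wolves r with the mean array SD was 0.540 for FLOT2 and 0.660 for GRAMD1A. Wolves 11136 and 10406, low for both genes, had the narrowest arrays, with mean SDs of 0.365 and 0.437, while wolf 11273, the lowest, had 0.516 and wolf 11270, the highest, 0.528. When all arrays were scaled to equal SD, wolf 11270 was still the highest for both genes, the lowest was wolf 10406, and the spans were 5.55-fold for FLOT2 and 6.76-fold for GRAMD1A. Over the 13 wolves r between the 2 genes was 0.894 at that scale, against 0.952 as deposited. At equal SD wolf 11136 no longer lies below the high wolves in FLOT2, so the 2 ranges hold for the deposited scale only. Values of r within ranges were not taken again at equal SD.

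**Figure D2:**
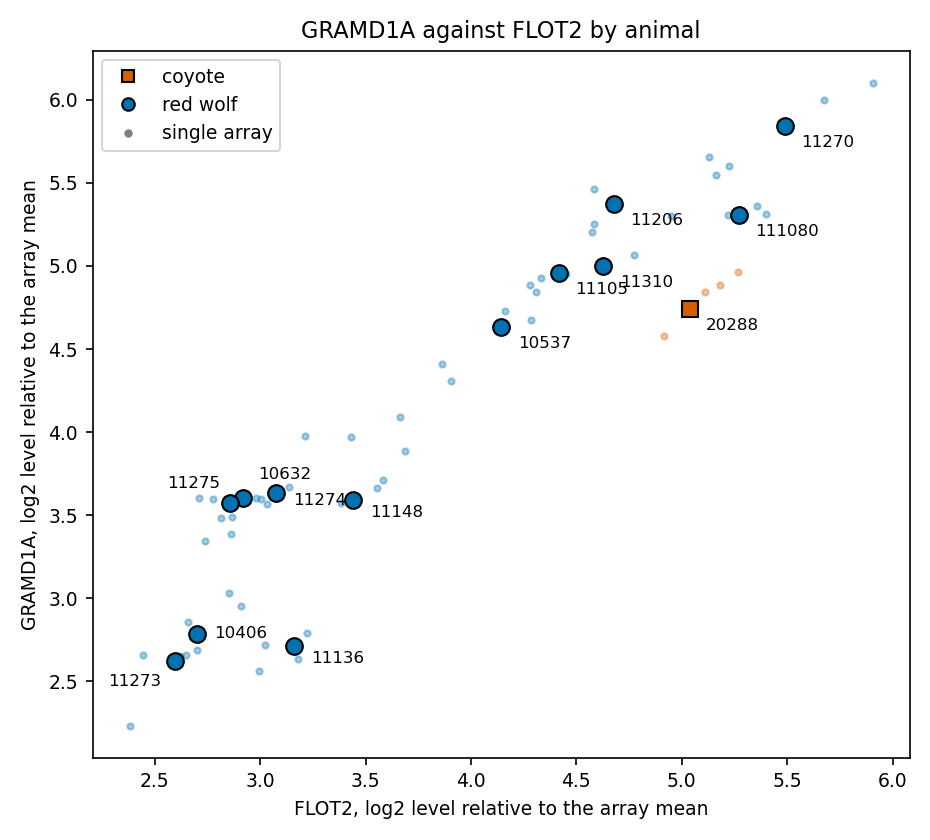
GRAMD1A against FLOT2, both as log2 level relative to the array mean, in the coyote (orange square) and 13 red wolves (blue circles, numbered), with single arrays as small points. On the deposited scale the 6 high wolves lie apart from the 7 low ones. Wolf 11136 lies below the others of its FLOT2 level, and the coyote lies below the high wolves of its FLOT2 level.

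The difference of the 2 probes within an animal takes out an offset common to both, but not an effect that scales with the level, such as the spread of the array. Its zero has no meaning, since probes bind differently, and only its change between animals can be read. GRAMD1A minus FLOT2 was -0.30 in the coyote. In the wolves it was 0.33 ± 0.34 (SD, n = 13) and ran from -0.45 in wolf 11136 to 0.72 in wolf 11275. The coyote stood 0.62 below the wolves' mean, and 1 of 13 wolves lay lower still. This measure was chosen after the values were seen, and with 1 coyote it is given as a description.

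The coyote was then compared with the 13 wolves, a contrast that did not enter the choice of these genes. FLOT2 had values of 4.92, 5.11, 5.18 and 5.27 on the coyote's arrays, and the coyote's level of 5.04 lay within the range of the wolves, 2.59 to 5.49, with 2 wolves above it. The coyote was 1.24 higher than the wolves' mean of 3.80 (SE 0.90, 95% interval -0.60 to 3.08), and limma's adjusted p was 0.998. GRAMD1A had 4.58, 4.84, 4.89 and 4.96 on the coyote's arrays, with 5 wolves above its level of 4.74. Its difference from the wolves' mean of 4.13 was 0.62 (SE 0.95, 95% interval -1.33 to 2.56, limma adjusted p = 0.998), and after quantile normalization it was 0.24 (limma adjusted p = 0.981). Neither gene passed, and the intervals leave room for differences of several fold in either gene. Both levels of the coyote lay within the range of the 6 high wolves. With arrays in place of animals as the unit, and slide as a random block, the differences were 1.29 and 0.66 and passed (limma adjusted p = 5.43e-10 and 0.00125), but that test takes no account of the spread between wolves.

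On each of its 4 slides the coyote was above the mean of the wolves on that slide, by 0.96 to 1.64 for FLOT2 and by 0.40 to 1.08 for GRAMD1A. On slide 32013, which holds none of wolves 11270, 111080 and 11310, the coyote exceeded all 7 wolves in FLOT2, and on the other 3 slides 5 or 6 of 7. For FLOT1 the difference was -0.14 (SE 0.08, 95% interval -0.31 to 0.03, limma adjusted p = 0.998), with both groups under the bound. Over all probes 1 was called higher in the coyote (0.00411%) and 0 lower by limma, where 457 and 453 had an unadjusted p under 0.05. Leaving out wolf 11136, 111080 or 11148 gave 2 calls, and leaving out wolf 11310 gave 4.

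The genes whose pattern over wolves was most like these 2 were sought among the 1596 other named genes above the bound. Likeness was Pearson's r over the 13 wolves, given as a description. High likeness was common: 145 genes (9.09%) had r of at least 0.9 with FLOT2 and 110 (6.89%) with GRAMD1A, and 39.6% and 41.0% had at least 0.5. The values of r fell into 2 heaps, with a median of 0.17 for FLOT2 and 0.24 for GRAMD1A. GRAMD1A, at 0.952, was the 20th nearest gene to FLOT2, and FLOT2 the 14th nearest to GRAMD1A.

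Nearest to FLOT2 were TRIM8, a ubiquitin ligase (r = 0.980), FES, a tyrosine kinase of myeloid cells (0.974), LASP1, an actin-binding protein (0.971), SERINC3, a multipass membrane protein (0.966), and MARCHF7, a ubiquitin ligase (0.965). Then followed PPP1CC, a catalytic subunit of protein phosphatase 1 (0.964), DDX5, an RNA helicase (0.963), FBXO11, a substrate receptor of a ubiquitin ligase (0.961), KMT5B, a histone methyltransferase (0.958), and SNX27, which sorts endosomal cargo back to the plasma membrane (0.956). Of these 10 genes, 6 were lowest in wolf 11273 and 6 highest in wolf 11270, as FLOT2 was. Since the genes were picked for their r with FLOT2 over the same wolves, shared extremes follow largely from that choice. FES and MARCHF7 fell under the background bound in wolf 11273, at 0.32 and 0.07, and SNX27 in wolf 10632, at 0.29. TRIM8 ran from 0.85 to 3.45 between these wolves, and LASP1 from 2.95 in wolf 10406 to 5.57 in wolf 111080. Within the 7 low wolves r with FLOT2 lay between 0.226 (KMT5B) and 0.931 (PPP1CC), and within the 6 high wolves between 0.677 (PPP1CC) and 0.966 (FES).

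Nearest to GRAMD1A were GNAI2, a G protein subunit (r = 0.986), VTI1B, a SNARE of endosome fusion (0.975), MARK2, a kinase of cell polarity (0.975), SP100, a nuclear body protein (0.974), and DDX5 (0.970). Then came LMBR1L, a membrane receptor (0.968), HNRNPA3, an RNA-binding protein (0.964), TBC1D23, which tethers vesicles at the Golgi (0.961), ZSWIM8, a ubiquitin ligase subunit (0.958), and CORO1A, an actin-binding protein of leukocytes (0.958). GNAI2 ran from 2.48 in wolf 11136 to 5.23 in wolf 11270. VTI1B and TBC1D23 fell under the bound in wolf 11273, at 0.31 and 0.39. Within the 7 low wolves r with GRAMD1A lay between 0.722 (LMBR1L) and 0.951 (MARK2), and within the 6 high wolves between 0.440 (CORO1A) and 0.943 (HNRNPA3). DDX5 was the 1 gene among the nearest 10 of both. At the other end, DHX8, a splicing helicase, and DNAJB4, a chaperone, had the lowest r with both genes (-0.79 and -0.71 with FLOT2, -0.74 and -0.66 with GRAMD1A). The third lowest were CER1 for FLOT2 (-0.69) and CSNK1A1L for GRAMD1A (-0.64), and all 4 lay barely above the bound, at mean levels of 0.43 to 0.46.

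**Figure D3:**
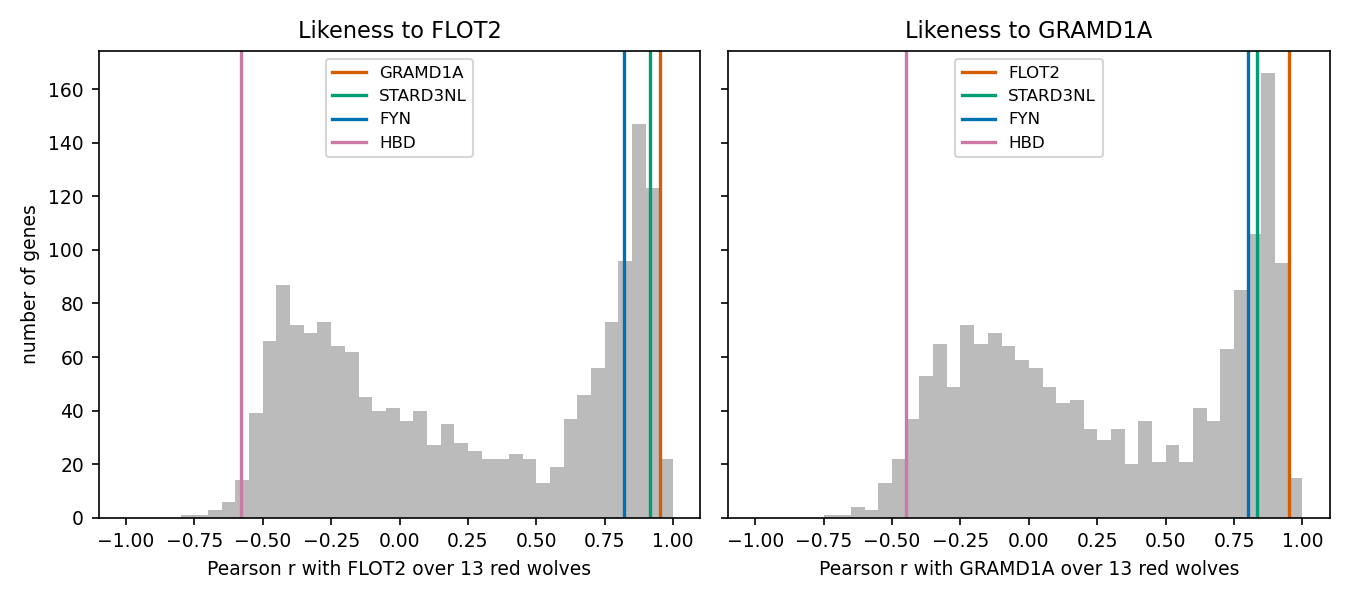
Number of named genes above the background bound (vertical axis) by their Pearson r over 13 red wolves with FLOT2 (left) and GRAMD1A (right). Lines mark the other member, STARD3NL, FYN and HBD. The genes form 2 heaps, and the 2 members, STARD3NL and FYN lie in the upper one, with HBD on the negative side.

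Other genes of rafts and of sterol handling were followed in 5 lists, each gene by its brightest probe. Of 96 measured genes 15 differed among the wolves in limma's F test at an adjusted p under 0.05 (15.6%), against 11.2% of all probes, and 11 lay above the background bound. Of these 11, 10 passed, where 78.1% of all probes above the bound did. The median SD over wolves of the 96 genes was 0.09, as for all probes. Most genes of these lists were thus too dim to follow. None of the 96 reached the SD of FLOT2 or GRAMD1A. Both were chosen for a large SD, which only 11 and 6 of all probes exceed, so this does not set them apart from the lists.

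Among the proteins that carry sterols and other lipids between membranes or tether membranes, 4 of 29 differed (2 of 29 without array 2 or without array 3 of each animal). Without array 4 of each animal 5 differed. With dim probes left out only 2 genes of this list were tested, and both passed. STARD3NL, an endosomal protein that tethers the endoplasmic reticulum, had an SD of 0.83 (limma adjusted p = 6.53e-30). It was 2.30 in the coyote and ran from 0.60 in wolf 11273 to 3.08 in wolf 11270, a 5.58-fold span with the same extremes as FLOT2 and GRAMD1A. Wolves 111080, 11105 and 11206 followed at 3.06, 2.48 and 2.43. Wolves 11310 and 10537, also high for FLOT2, had only 1.75 and 1.39. Low wolf 11136 had 1.75, and low wolves 11275 and 11148 had 1.32 and 1.26, so STARD3NL did not keep the 2 ranges of FLOT2. STARD3NL had r = 0.916 with FLOT2 and 0.835 with GRAMD1A over the 13 wolves. STARD6, a lipid-binding protein known mainly from male germ cells, had an SD of 0.41 over wolves (limma adjusted p = 0.000244) and one of 0.43 between single arrays of a wolf. It stood between 1.27 in wolf 11310 and 2.71 in wolf 11105 (r = -0.30 with FLOT2). OSBPL3 and OSBPL7, oxysterol-binding proteins, passed with mean levels of 0.01 and -0.15, both under the bound. GRAMD1C, OSBP, NPC1, NPC2 and STARD3 did not pass and lay under the bound.

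The list of SPFH proteins and caveola scaffolds had 1 of 16 that differed (2 after quantile normalization). CAV1, the main coat protein of caveolae, had an SD of 0.22 (limma adjusted p = 2.07e-07) and stood between 0.62 in wolf 11105 and 1.32 in wolf 11206, with 0.70 in the coyote. CAV2 lay just above the bound with an SD of 0.05 and did not pass (limma adjusted p = 0.914). Stomatin (STOM), the raft protein of red cells related to the flotillins, the prohibitins and the erlins were under the bound.

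Of the raft kinases, adaptors and GPI-anchored proteins 3 of 17 differed, all kinases of the SRC family. These 3 were also the only genes of this list above the bound, where 78.1% of all probes passed. LYN, FGR and YES1, of the same family, lay under the bound and did not pass. FYN, which is held at the inner membrane face by acyl chains, had an SD of 0.47 (limma adjusted p = 3.94e-18) and ran from 1.13 in wolf 11273 to 2.45 in wolf 10537, with 1.73 in the coyote. Its r with FLOT2 was 0.820 and with GRAMD1A 0.800. Of its other 2 probes, both under the bound, 1 also passed (limma adjusted p = 0.000351, r = 0.633 with FLOT2) and 1 did not (0.339, r = -0.23). SRC, which ran from 0.41 in wolf 11136 to 1.63 in wolf 11275, had an SD of 0.33 (limma adjusted p = 5.3e-10) and r = -0.34 with FLOT2. Its other 2 probes lay under the bound and did not pass. LCK, the T cell kinase, ran from 0.25 in wolf 11148 to 1.01 in wolf 11310 (SD 0.25, limma adjusted p = 2.03e-07).

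Of 11 receptors and linkers of the uropod 3 differed (1 of 11 without array 1 or without array 3 of each animal). With other arrays or a wolf left out, up to 4 differed. CD44, the hyaluronan receptor, ran from 0.24 in wolf 11136 to 1.26 in wolf 10406 (SD 0.29, limma adjusted p = 6e-09). SPN, the large sialoglycoprotein CD43, had an SD of 0.21 over wolves (limma adjusted p = 0.0347) and one of 0.27 between single arrays of a wolf. MSN, moesin, which links membrane to actin, had 0.15 over wolves (limma adjusted p = 0.00533) and 0.13 between single arrays. Their r with FLOT2 was 0.275, -0.30 and 0.252. SELPLG, the selectin ligand known to associate with flotillins in human neutrophils, was under the bound.

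In the list of cholesterol synthesis, uptake, storage and efflux 4 of 23 differed (2 of 23 with no slide term). With dim probes left out only 1 gene of this list was tested, and it passed. CYP51A1, which removes a methyl group from lanosterol, was the only one above the bound. It ran from 1.40 in wolf 11310 to 2.67 in wolf 11275, with 1.95 in the coyote (SD 0.37, limma adjusted p = 5.39e-08), and had r = -0.43 with FLOT2. INSIG2, which holds back sterol-sensing transcription, ABCA1, the cholesterol exporter, and PMVK, an enzyme of the mevalonate pathway, passed with SDs of 0.16, 0.15 and 0.12 under the bound. In the coyote comparison 0 of the 96 genes of the 5 lists were called by limma (7 had an unadjusted p under 0.05), and the median difference was -0.01.

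**Figure D4:**
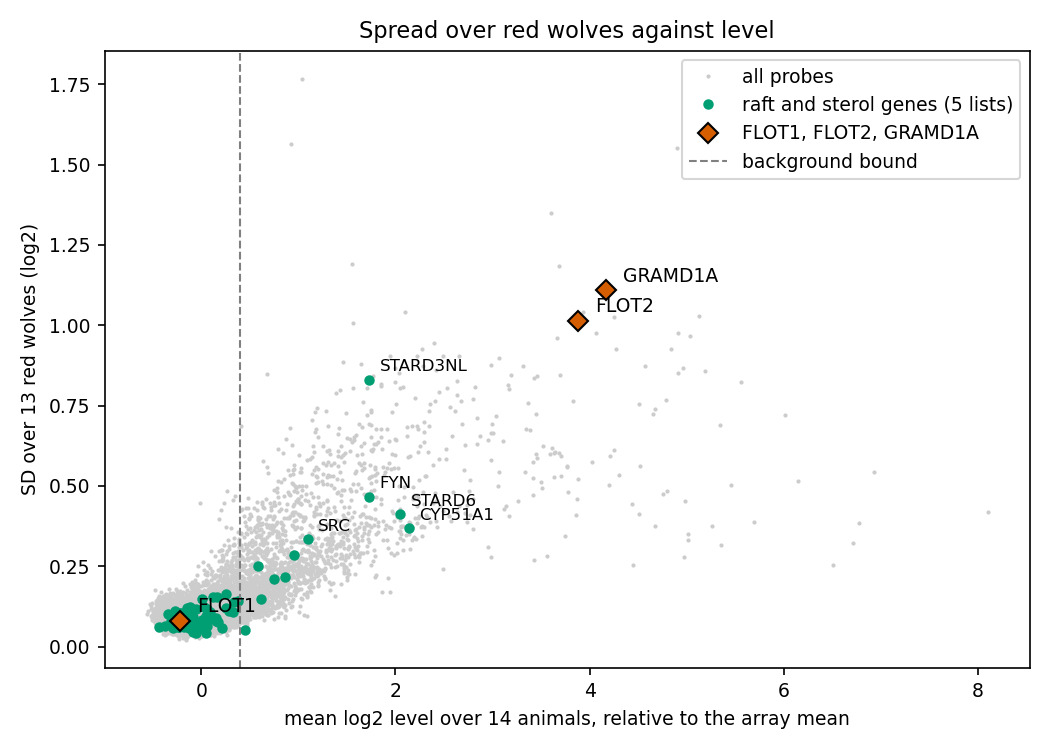
SD over 13 red wolves (log2, vertical axis) against mean log2 level over 14 animals for all probes (grey), the 96 raft and sterol genes (green) and FLOT1, FLOT2 and GRAMD1A (orange). The dashed line is the background bound; FLOT2 and GRAMD1A stand at SDs of 1.01 and 1.11, STARD3NL at 0.83, and most green points, like FLOT1, lie under the bound.

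Markers of blood cell types were read beside these genes. Of 97 measured markers of red cells, neutrophils, monocytes, T cells, B and plasma cells and platelets, 12 lay above the bound, 7 of them red cell genes, and none was a B cell gene. The mean level of the red cell list was 0.588 in the coyote and 0.489 to 0.858 over the wolves, with 0.593 in wolf 11270 and 0.809 in wolf 11273. The neutrophil list averaged -0.004 in the coyote and -0.025 to 0.038 over the wolves. The monocyte list averaged -0.05 in the coyote and -0.16 to -0.03 over the wolves, and the T cell list 0.02 in the coyote and -0.06 to 0.03 over the wolves. Platelet genes averaged 0.05 in the coyote and 0.04 to 0.16 over the wolves, and B and plasma cell genes -0.01 in the coyote and -0.08 to 0.02 over the wolves.

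The 7 red cell genes above the bound had negative r with FLOT2 over the 13 wolves, from -0.58 for HBD, the delta-globin gene, to -0.18 for HBA1, where 42.8% of all named genes above the bound had a negative r. With GRAMD1A their r ran from -0.45 for HBD to -0.06 for HBA1, where 36.2% of genes were negative. HBA1 and AHSP, which encodes the chaperone of alpha-globin, did not pass the F test among wolves (limma adjusted p = 0.0557 and 0.200). HBD was 5.39 in the coyote, and over the wolves it ran from 5.41 in wolf 11310 to 6.85 in wolf 11273. MARCO, a scavenger receptor of macrophages, had the highest r of the 12 with FLOT2, 0.612, but its mean level of 0.41 lay just above the bound. It stood at 2.34 in wolf 111080 and at -0.04 in the lowest wolf, 10537. Wolf 111080 alone lifted this mean over the bound, and it was also second highest for FLOT2. NCF1, the only neutrophil gene above the bound, had r = 0.03, and the defining neutrophil genes S100A8, S100A9 and CSF3R and the monocyte genes CD14 and LYZ lay under it. What part cell makeup has in the levels of FLOT2 and GRAMD1A was not tested.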

How the data were processed

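Per the labels' design text, the authors took raw bead array intensities, transformed them to log2 and centred each array on its median. The deposited log2 values have an array mean of 0 (largest absolute mean 3.24e-09) and medians between -0.17 and -0.03, so they are relative to the mean. BeadStudio 1.5.0.34 is named in the submitters' processing notes, and the sources used here do not state whether background was subtracted. No spread was equalised between arrays. Probes were named from the 2016 platform annotation (18339 with 1 symbol, 0 with several, 6015 with none).

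Tests were run in R 4.3.3 with limma 3.58.1, with a trend of variance on intensity and Benjamini-Hochberg adjustment over all 24354 probes at 0.05. Animal values came from a fit of animal and slide over 56 arrays, and the coyote was set against the wolves over the 14 animal values, on the assumption that coyotes vary as the wolves do. Differences among wolves were tested by the F test of animal with slide in the model, where arrays measure technical error only. Genes on several probes were read from the brightest. The nearest genes named are the 10 highest and 3 lowest by r above the bound, and list genes are up to 4 that passed by SD, with those above the bound; other list genes, and wolf and array values given for them, were picked after their values were seen. The members and lists were chosen with earlier results of these data known. The coyote comparison is limited by the spread between wolves and by the single coyote, and the differences among wolves by the number of arrays. The procedures were tested on simulated data.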

Additional observations from a re-analysis of the deposited data

Results flagged for a closer look

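Among 42 sets of 4 arrays, 1 per animal and gene, 3 had an array whose distance to the next was large for the range of the set, and chance flags about 1 in 20. FLOT1 was -0.53 in wolf 10406 on slide 32021, against -0.17 to -0.11 on its other arrays, all under the background bound. FLOT2 was 4.68 in wolf 11206 on slide 32024, against 4.57 to 4.59, a set with a narrow range. GRAMD1A was 3.03 in wolf 10406 on slide 32013, against 2.65 to 2.66. The array of wolf 11310 on slide 32022, which was low for both FLOT2 and GRAMD1A, did not meet this limit.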

How the results depend on the processing

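The other settings were quantile normalization, centring on the 75th percentile or the median, equal array SD, dim probes left out, no slide term, no intensity trend, slide as a random block, and leaving out array 1, 2, 3 or 4 of every animal or 1 wolf. The array of wolf 11310 on slide 32022 was left out as a choice made after seeing the data. FLOT2 stayed higher in the coyote by 0.89 to 1.37, GRAMD1A by 0.24 to 0.75 and FLOT1 lower, at -0.16 to -0.12, and only the random block over arrays called FLOT2 (1.29) and GRAMD1A (0.66). The lowest values came with quantile normalization for both, and without that wolf 11310 array no call changed. The probes called in the coyote comparison were 2 with 75th percentile centring, 0 without an intensity trend in limma (860 at an unadjusted p under 0.05) and 501 with the random block, and between 1 and 4 when arrays or a wolf were left out, most without wolf 11310. Among wolves 1790 of the 2064 probes above the bound passed with dim probes left out, against 1613 of them when all probes were tested. Of all 24354 probes between 1629 and 2770 passed when arrays or a wolf were left out, lowest without array 3 of each animal. The list genes that passed numbered 10 to 16. In the uropod list 1 passed without array 1 or array 3, and in the sterol transfer list 2 passed without array 2 or array 3. With other arrays or a wolf left out, up to 4 passed in the uropod list and up to 5 in the sterol transfer list. In the cholesterol balance list 2 passed with no slide term, and in the scaffold list 2 after quantile normalization. The causes of these changes were not tested. With dim probes left out, only 2 genes of the sterol transfer list and 1 of the cholesterol balance list were tested, and all passed. The SD over wolves was 0.77 for FLOT2 and 0.88 for GRAMD1A after quantile normalization, and 0.78 and 0.84 with equal array SD. Over all other settings it lay between 0.91 and 1.05 for FLOT2 and between 1.03 and 1.15 for GRAMD1A. Signal over background limits FLOT1 and most list genes.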
